A study of Homo sapiens with 6 samples.

Results

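Interferon-stimulated genes, 48 by name out of 57914 genes in the deposited tables, were followed in A375, a human melanoma cell line, after sorting by aldehyde dehydrogenase (ALDH) activity. The genes were chosen by symbol as type I and type II interferon targets and their regulators, with antigen presentation genes left out, and each of the 48 symbols matched a single gene of the tables. These genes, and the lists of other pathway genes used below, were chosen with earlier results of these data known. Shares set beside those of all genes therefore describe the lists and do not test them. The stain was Aldefluor, which ALDH enzymes turn into a fluorescent product held inside the cell, and the 5% with the highest signal (ALDH_High) and the 5% with the lowest signal (ALDH_Low) were collected. No interferon or other agent is named in the labels, and both groups are the same cell line in the same medium. Each group held 3 libraries. The labels do not say whether these came from separate cultures, so the p-values measure the spread between these libraries, which may be technical.

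Interferons are secreted proteins that bind receptors on the cell surface. The receptors activate the kinases JAK1, JAK2 and TYK2, which phosphorylate transcription factors of the STAT family. STAT2 is part, with IRF9, of the complex ISGF3, which binds a DNA element called the ISRE, while STAT dimers bind an element called GAS. The genes switched on in this way code for sensors of viral RNA, for proteins that block translation or degrade RNA, for proteins that act on virus entry or release, and for the ubiquitin-like modifier ISG15. Many are also transcribed at a low basal level in tumour cells that have met no interferon from outside.

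Nearly all the interferon-stimulated genes that differed between the groups were lower in ALDH_High than in ALDH_Low. Of the 48 genes, 45 had counts high enough for the test, and 23 of these passed it (edgeR quasi-likelihood test, Benjamini-Hochberg adjusted p below 0.05 over all genes), where 20.6% of all 17047 genes tested did. Of the 45, 21 were lower, where 9.83% of all genes were. Only 2 of the 45, GBP2 and OAS1, were higher, where 10.8% of all genes were. The median log2 fold change (ALDH_High minus ALDH_Low) was -0.58 over the 45 genes and -0.01 over all genes tested, and 37 of the 45 values lay below 0, as did 51.4% of all genes. Every ALDH_High library lay below every ALDH_Low library for 26 of the 45 genes, against 19.1% of all genes, and above for 2, against 18.6%. A log2 fold change of -1 or below was reached by 12 of the 21 lower genes, where 5.6% of all genes tested were lower by that much, and a value of 1 or above by GBP2 alone, where 5.89% of all genes were higher by that much. The remaining 3 genes, RSAD2, IFI27 and IDO1, were left untested and never exceeded 10 counts in a library.

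The count of lower genes depended on the libraries and on the unit. It fell to 13 when ALDH_High library 2 was left out and to 14 when ALDH_Low library 1 was. With limma on the TPM values it was 11, 12 or 5, depending on the pseudocount and the filter on low values. In each of these limma settings the same 2 genes, GBP2 and OAS1, were higher. The number of calls over all genes also fell, from 3513 to 2507 and 2738 in the fits with a library left out. With limma it was 2446, 2457 and 2006. Across the 6 fits that each left out 1 library, 12 of the 21 kept their call in every fit: IFIH1, DDX60, IFIT3, IFIT5, OASL, SAMD9, UBE2L6, HERC5, IRF1, PARP14, IFI44 and IFI44L. Of these 12, IFIH1, SAMD9 and PARP14 did not pass with limma on log2(TPM + 1) and a minimum mean of 1 TPM, a filter that left HERC5 and IFI44L untested. Of the 2 higher genes GBP2 kept it, and OAS1 lost it without ALDH_High library 2 and without ALDH_Low library 2.

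**Figure D1:**
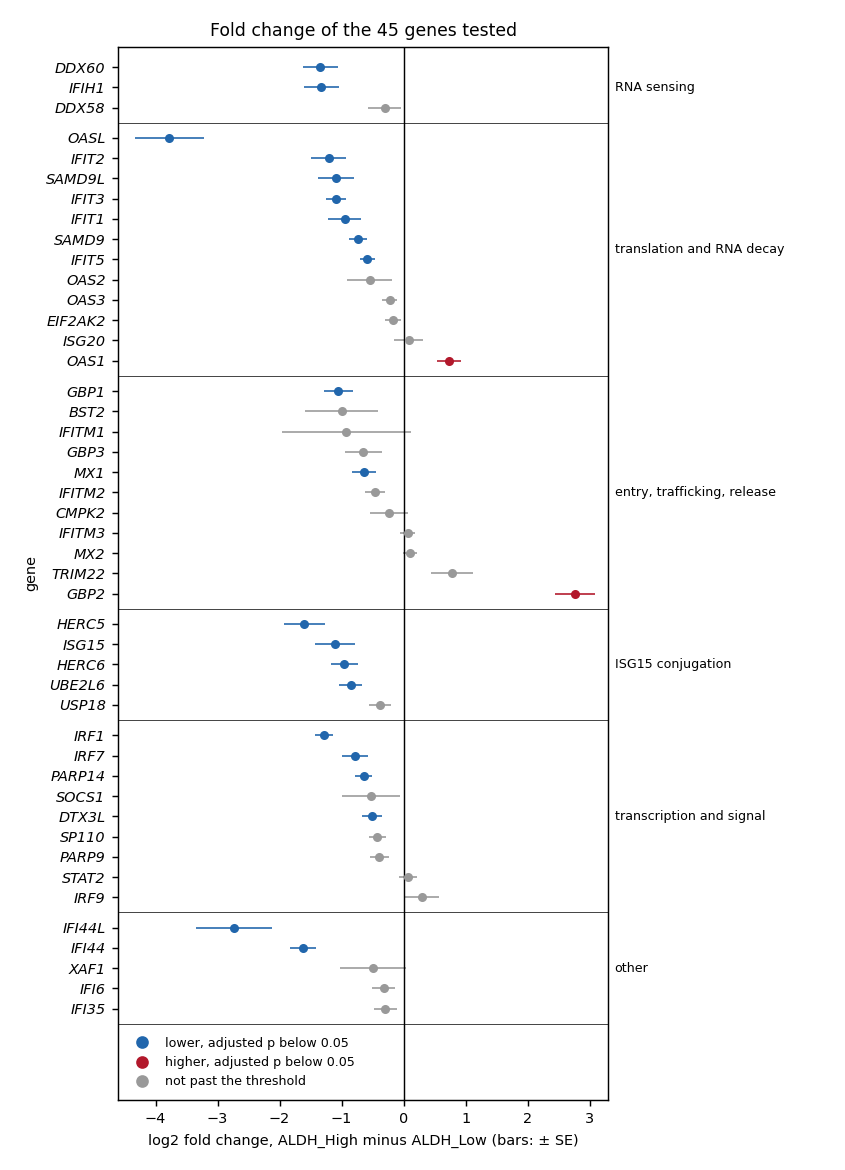
Log2 fold change (ALDH_High minus ALDH_Low, x axis) of the 45 genes tested (y axis), grouped by role, with bars of ± SE from the edgeR fit of 3 against 3 libraries. Blue points are the 21 lower genes and red points the 2 higher genes at an adjusted p below 0.05, and grey points did not pass; the lowest value is that of OASL (-3.78) and the highest that of GBP2 (2.76).

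Promoters of the genes with the smallest p are shown first, searched for letters that match the ISRE and GAS elements. The windows are from RefSeq (GRCh38.p14), run from 250 bases before to 50 after the first listed transcription start, and are written 5′ to 3′ on the gene's strand. Capitals mark matches to an ISRE core (GAAANNGAAA on either strand) or to a GAS core (TTCNNNGAA, which reads the same on both strands). Of the 6 genes past the threshold with the smallest p, 4 had an entry in the table: IRF1 (chr5:132490724-132491023, minus strand), IFI44 (chr1:78649539-78649838, plus strand), IFIT3 (chr10:89327747-89328046, plus strand) and SAMD9 (chr7:93117930-93118229, minus strand).
IRF1: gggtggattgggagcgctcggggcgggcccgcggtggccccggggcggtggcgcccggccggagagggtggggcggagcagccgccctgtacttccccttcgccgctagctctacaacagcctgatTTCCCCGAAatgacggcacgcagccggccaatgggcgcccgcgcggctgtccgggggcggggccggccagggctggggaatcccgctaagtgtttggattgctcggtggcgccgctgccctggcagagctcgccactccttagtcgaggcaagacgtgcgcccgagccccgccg
IFI44: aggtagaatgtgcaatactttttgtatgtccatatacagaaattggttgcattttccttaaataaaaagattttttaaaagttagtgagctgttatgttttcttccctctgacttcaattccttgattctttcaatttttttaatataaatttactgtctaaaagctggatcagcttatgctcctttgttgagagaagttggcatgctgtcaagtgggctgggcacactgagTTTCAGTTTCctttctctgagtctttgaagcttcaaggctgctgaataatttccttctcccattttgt
IFIT3: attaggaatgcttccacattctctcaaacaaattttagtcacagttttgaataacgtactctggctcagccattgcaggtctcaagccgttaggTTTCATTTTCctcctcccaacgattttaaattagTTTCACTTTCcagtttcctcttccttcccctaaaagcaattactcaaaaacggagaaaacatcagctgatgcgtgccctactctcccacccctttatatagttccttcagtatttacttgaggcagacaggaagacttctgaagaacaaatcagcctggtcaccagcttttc
SAMD9: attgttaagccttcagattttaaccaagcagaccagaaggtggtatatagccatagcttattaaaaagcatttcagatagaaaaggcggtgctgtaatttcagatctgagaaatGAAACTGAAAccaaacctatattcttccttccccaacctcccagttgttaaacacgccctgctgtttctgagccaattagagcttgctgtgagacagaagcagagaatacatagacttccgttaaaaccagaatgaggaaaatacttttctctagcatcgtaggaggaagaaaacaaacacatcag

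IFI44, IFIT3 and SAMD9 each carry ISRE letters in this window, 18 bases before the start in IFI44, 156 and 122 bases before it in IFIT3 and 136 bases before it in SAMD9. IRF1 carries the GAS letters 124 bases before its start and no ISRE match. Of the 48 genes, 38 had a promoter in the table. The ISRE letters were found in 24 of these 38 first listed windows (63.2%) and in 3.65% of the windows of all 27305 genes in the table, and the GAS letters in 10 of 38 (26.3%) and in 7.88%. Windows with ISRE letters were those of 14 of the 18 genes that were lower in ALDH_High and had an entry, and of 9 of the 17 that did not pass the threshold. The promoter of OAS1, which was higher, held the GAS letters and not the ISRE letters. The ISRE and GAS matches overlapped in 3 windows, those of IFITM1, BST2 and IFI27. A match describes these letters and was not tested as a binding site.

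Total counts lay between 26692868 and 37830603 per library, and levels are given as CPM, counts scaled to the library size (with TMM factors unless stated). ALDH1A3, the enzyme named in the study's title, lay between 683 and 1149 CPM in ALDH_High and between 345 and 420 in ALDH_Low (edgeR log2 fold change 1.32, SE 0.19, adjusted p 0.000734). Of 8 melanocyte and melanoma markers, MLANA and TYR were at 3 counts or fewer in every library, while SOX10 lay between 596 and 769 CPM of total counts in ALDH_High and between 177 and 208 in ALDH_Low. S100B of the same list lay between 29.9 and 35.1 against 0.605 and 3.14, and MITF, the melanocyte master regulator, went the other way, at 12.2 to 14.3 against 19.1 to 32.6. White blood cells express interferon-stimulated genes strongly, and the summed level of 8 of their markers lay between 14.5 and 28.1 CPM of total counts in ALDH_High and between 58.4 and 70.3 in ALDH_Low. CD68, a lysosomal protein that is not confined to white blood cells, made up 55.3 to 68.3 of the latter. CD14, a monocyte marker, was also higher in every ALDH_Low library, at 0.634 to 1.07 against 0.112 to 0.358, while LYZ, the lysozyme gene, was lower there, at 0.807 to 1.46 against 2.45 to 6.37. CD3E and CLEC4C were at 3 counts or fewer in every library and the pan-leukocyte marker PTPRC reached at most 4. Their part in the differences was not tested. In these bulk samples, fewer cells that express a gene and less RNA per cell cannot be told apart.

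The levels of the 48 genes spanned a wide range on the TPM scale, which is corrected for gene length. IFITM3, a membrane protein that blocks virus entry, was the most abundant, at 305 ± 23.2 TPM in ALDH_High and 282 ± 3.42 TPM in ALDH_Low (SD, n = 3). By the mean over all 6 libraries it was followed by ISG20, an exonuclease that degrades RNA, at 68.2 ± 20.01 and 63.1 ± 10.4 TPM, and by MX2, a dynamin-like GTPase that blocks retroviruses, at 45 ± 2.08 and 40.6 ± 3.77 TPM. In ALDH_Low alone UBE2L6, at 49 ± 2.13 TPM, lay above MX2 in every library, and IFITM2 was at 41.1 ± 4.70 TPM. None of IFITM3, ISG20 and MX2 passed the threshold (edgeR adjusted p 0.752 for IFITM3, 0.856 for ISG20 and 0.593 for MX2). The summed TPM of the 48 genes was 768, 727 and 670.04 in ALDH_High libraries 1, 2 and 3 and 842, 799.6 and 791 in ALDH_Low libraries 1, 2 and 3. The groups did not overlap in this sum, and IFITM3 made up 42.3 ± 0.741% of it in ALDH_High and 34.8 ± 1.47% in ALDH_Low (SD, n = 3).

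**Figure D2:**
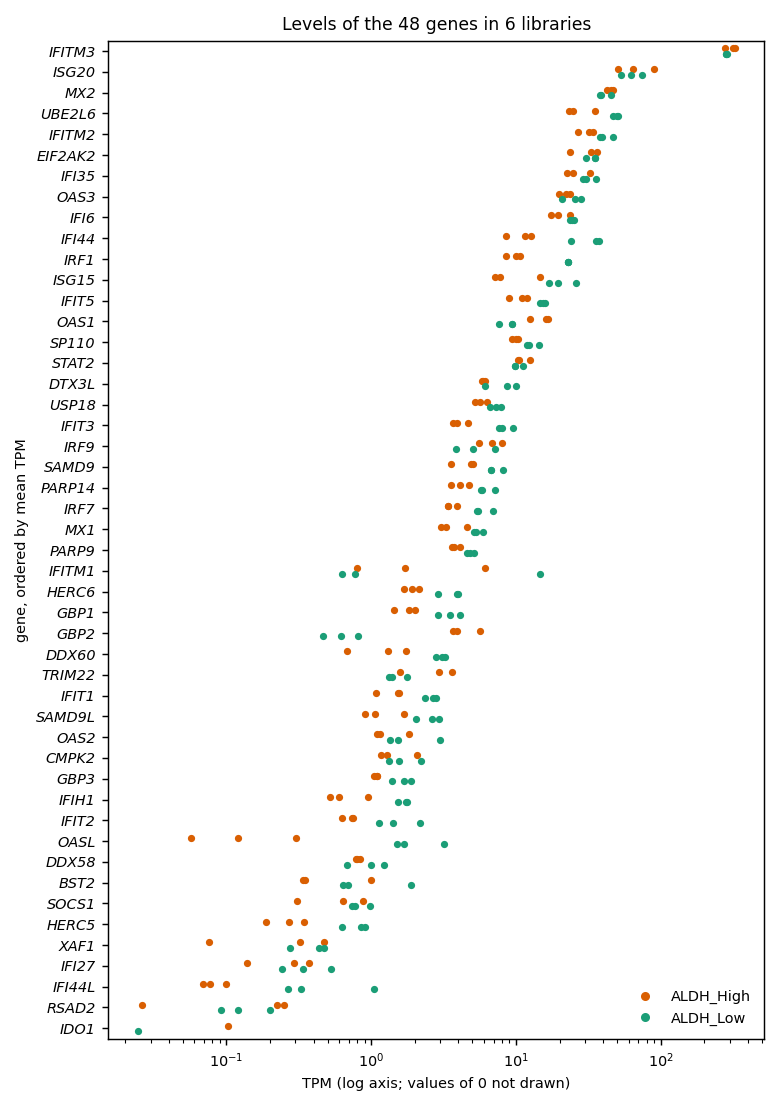
TPM (x axis, log scale) of the 48 genes (y axis, ordered by mean TPM) with 1 point per library, 3 for ALDH_High and 3 for ALDH_Low; values of 0 are not drawn. IFITM3 stands at the top of the order, and the ALDH_High points of OASL, IFI44 and HERC5 lie to the left of their ALDH_Low points, while those of GBP2 lie to the right.

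Values by library are given from here on in the order of libraries 1, 2 and 3 of ALDH_High, then 1, 2 and 3 of ALDH_Low, in TMM-scaled CPM. Among the 3 RNA sensors, IFIH1 and DDX60 were lower, where 9.83% of all genes were, and DDX58 did not pass. IFIH1 (chromosome 2, 162267074 to 162318684, GRCh38) codes for MDA5, the cytosolic sensor of long double-stranded RNA. Its values were 0.986, 1.01 and 1.58 CPM in ALDH_High against 3.09, 2.71 and 3.24. All ALDH_High values lay below all ALDH_Low values (log2 fold change -1.33, SE 0.29, edgeR adjusted p 0.00883). DDX60, a helicase described as a cofactor of RNA sensing, had 1.93, 4.46 and 3.25 CPM in ALDH_High against 8.14, 7.46 and 9.06. Its groups did not overlap either, with ALDH_High library 1 the lowest of the 6 (log2 fold change -1.34, SE 0.28, edgeR adjusted p 0.00739). DDX58, which codes for the RIG-I sensor of viral RNA ends, had 2.56, 2.20 and 2.14 CPM against 3.53, 2.88 and 2.08, with overlapping groups (log2 fold change -0.31, edgeR adjusted p 0.490). Of the 50-base words of its longest transcript, 89.1% also occur in transcripts of other gene entries of the annotation, so the value of DDX58 is uncertain.

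Of the 12 genes that act on translation or RNA decay, 7 were lower, 1 was higher and 4 did not pass, with a median log2 fold change of -0.66. Of all genes tested, 9.83% were lower and 10.8% higher. The largest difference was that of OASL (chromosome 12, 121017763 to 121039246), a protein related to the oligoadenylate synthetases that enhances RIG-I signalling. OASL had 0.513, 0.174 and 0.0879 CPM in ALDH_High, from 13, 6 and 3 counts. In ALDH_Low the values were 4.98, 2.64 and 2.48, from 192, 79 and 69 counts. The groups lay far apart (log2 fold change -3.78, SE 0.55, edgeR adjusted p 0.000945), and without ALDH_High library 1 the log2 fold change of OASL was -4.64.

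All 4 IFIT genes were lower in ALDH_High, where 9.83% of all genes tested were. The IFIT genes code for proteins with tetratricopeptide repeats that bind viral RNA and hold back its translation, and they lie side by side on chromosome 10. IFIT3 (89327307 to 89377473) had 7.14, 6.89 and 8.003 CPM in ALDH_High against 17.4, 13.99 and 15.5, without overlap (log2 fold change -1.09, SE 0.16, edgeR adjusted p 0.000975). IFIT2 had 1.58, 1.68 and 1.61 CPM against 5.14, 3.31 and 2.80, so that the ALDH_High libraries lay close together while ALDH_Low library 1 stood above the other two (log2 fold change -1.21, SE 0.29, edgeR adjusted p 0.0136). IFIT1 had 2.09, 1.85 and 1.29 CPM against 3.35, 2.98 and 3.77 (log2 fold change -0.95, edgeR adjusted p 0.0317). It passed in only 1 of the 6 leave-one-out fits. Neither IFIT1 nor IFIT2 passed in any of the limma settings on TPM, and IFIT5 did not pass in 1 of them. IFIT5, the most abundant of the IFIT genes, had 19.9, 22.1 and 23.2 CPM against 33.1, 32.0 and 32.6 and the smallest difference (log2 fold change -0.58, SE 0.12, edgeR adjusted p 0.00639).

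SAMD9 and SAMD9L, neighbours on chromosome 7 whose proteins restrict poxviruses and slow growth, were both lower. SAMD9 had 14.4, 17.8 and 17.9 CPM in ALDH_High against 31.2, 25.5 and 27.1 (log2 fold change -0.74, SE 0.14, edgeR adjusted p 0.00499). SAMD9L had 5.64, 2.72 and 3.14 CPM against 9.21, 6.42 and 8.74 (log2 fold change -1.09, SE 0.29, edgeR adjusted p 0.0237), and passed in 2 of the 6 leave-one-out fits. EIF2AK2, the kinase PKR that halts translation on double-stranded RNA, had 76.3 ± 11.8 and 85.8 ± 4.06 CPM (SD, n = 3) and did not pass (log2 fold change -0.17, edgeR adjusted p 0.422).

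Of the oligoadenylate synthetases, which make the messenger that activates RNase L, only OAS1 passed. OAS1 (chromosome 12, 112905856 to 112933219) was higher in ALDH_High, at 17.2, 15.9 and 11.7 CPM against 9.42, 7.63 and 9.96 (log2 fold change 0.73, SE 0.19, edgeR adjusted p 0.0221). Its neighbours OAS3 and OAS2 did not pass, with log2 fold changes of -0.23 (edgeR adjusted p 0.213) and -0.55 (edgeR adjusted p 0.334). The ratio of OAS1 to OAS3 on the TPM scale was 0.815, 0.743 and 0.527 in ALDH_High libraries 1, 2 and 3 and 0.369, 0.273 and 0.450 in ALDH_Low libraries 1, 2 and 3. All 3 ALDH_High ratios were above all 3 ALDH_Low ratios. The mean log2 ratio differed by 0.94 between the groups, with an exact two-sided permutation p of 0.1, the smallest that 3 against 3 libraries can give (adjusted p 0.1 over the 4 ratios tested, 2 of OAS and 2 of GBP genes). The pair was chosen after its values were seen, so the ratio is no separate support for the OAS1 call.

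**Figure D3:**
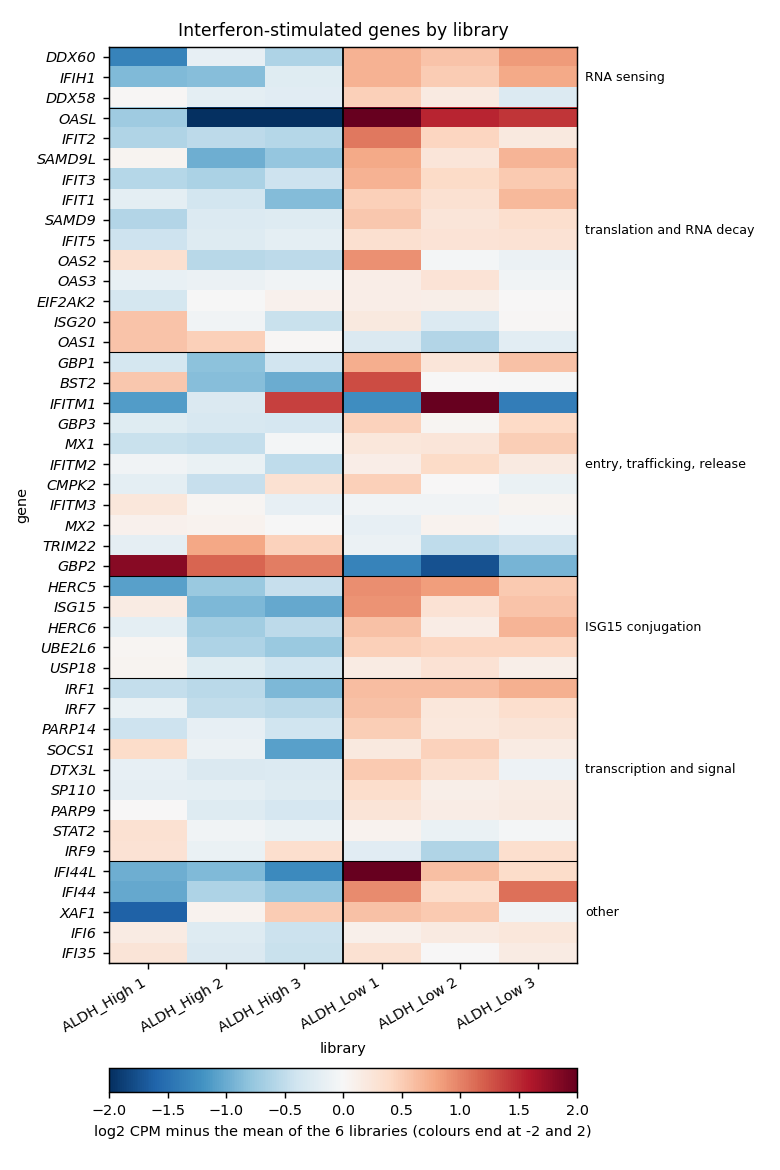
Log2 CPM of the 45 genes tested minus each gene's mean over the 6 libraries (colour, ending at -2 and 2), with libraries as columns and genes as rows grouped by role and ordered by fold change. Most rows are blue in the 3 ALDH_High columns and red in the 3 ALDH_Low columns; GBP2 and OAS1 run the other way, and IFITM1 is high in ALDH_Low library 2 and ALDH_High library 3.

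Of the 12 genes that act on virus entry, trafficking or release, 11 were tested: 2 were lower, 1 was higher and 8 did not pass. The share that passed, 27.3%, lay near the 20.6% of all genes, and 18.2% were lower, where 9.83% of all genes were. The guanylate-binding proteins, interferon-gamma-induced GTPases that attack membranes around pathogens, split within their cluster on chromosome 1. GBP2 (89106132 to 89150456) had 8.64, 5.44 and 4.95 CPM in ALDH_High against 0.908, 0.669 and 1.22. Every ALDH_High value of GBP2 was above every ALDH_Low value (log2 fold change 2.76, SE 0.32, edgeR adjusted p 0.000252). GBP1 (89051882 to 89065360) went the other way, with 3.12, 2.23 and 3.05 CPM against 6.64, 4.72 and 6.04 (log2 fold change -1.05, SE 0.24, edgeR adjusted p 0.0108). GBP3 had 0.947, 0.897 and 0.879 CPM against 1.58, 1.17 and 1.51, also without overlap, and did not pass (log2 fold change -0.65, edgeR adjusted p 0.164). The ratio of GBP2 to GBP1 in TPM was 3.09, 2.72 and 1.83 in ALDH_High libraries 1, 2 and 3 and 0.151, 0.160 and 0.230 in ALDH_Low libraries 1, 2 and 3. GBP2 thus exceeded GBP1 in every ALDH_High library and in no ALDH_Low library. The mean log2 ratio differed by 3.81 (exact two-sided permutation p 0.1, adjusted p 0.1), for a pair also chosen after its values were seen.

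MX1, a dynamin-like GTPase that traps viral nucleocapsids, had 5.48, 5.38 and 7.27 CPM in ALDH_High against 8.77, 8.93 and 10.6 (log2 fold change -0.64, SE 0.19, edgeR adjusted p 0.0408). This call held in only 1 of the 6 leave-one-out fits. MX2, beside it on chromosome 21, had 65.7, 65.1 and 61.3 CPM against 55.0, 64.9 and 59.5 (log2 fold change 0.10). TRIM22, an interferon-induced ubiquitin ligase, had 1.64 ± 0.541 and 0.950 ± 0.146 CPM (SD, n = 3) and did not pass (log2 fold change 0.78, edgeR adjusted p 0.143), though it did without ALDH_High library 1.

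The small membrane proteins IFITM1, IFITM2 and IFITM3, which stop viruses from fusing with cell membranes, did not pass. IFITM2 had 13.7, 13.2 and 10.2 CPM in ALDH_High against 15.9, 18.9 and 16.4, without overlap (log2 fold change -0.46, edgeR adjusted p 0.0717). IFITM1 had 0.316, 0.608 and 2.05 CPM against 0.285, 5.25 and 0.252. The libraries of each group of IFITM1 thus lay far apart, with ALDH_Low library 2 the highest of all and ALDH_High library 3 the next. Of the 50-base words of the longest IFITM1 transcript 38.9%, and of those of IFITM2 12.02%, also occur in transcripts of other genes. For both, a gene entry that overlaps them on the same strand shares the most words, followed by other IFITM genes, so their counts are uncertain. The share of such words was 10.3% for IFIT2 and 19.3% for IFI6, in each led by an overlapping gene on the same strand. For GBP1 it was 14.04%, led by GBP1P1. BST2, the tether that holds budding virus at the membrane, had at most 48 counts in any library and did not pass (log2 fold change -1.0, SE 0.59, edgeR adjusted p 0.284). CMPK2, a mitochondrial nucleotide kinase, had a log2 fold change of -0.23 (edgeR adjusted p 0.655), and RSAD2, the viperin gene next to it, had at most 8 counts.

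Of the 5 genes of ISG15 and its conjugation machinery, 4 were lower, where 9.83% of all genes were. Every ALDH_High library lay below every ALDH_Low library for all 5, against 19.1% of all genes. ISG15 (chromosome 1, 1001138 to 1014540), the ubiquitin-like modifier itself, had 6.39, 3.04 and 2.76 CPM in ALDH_High against 10.7, 6.96 and 8.45 (log2 fold change -1.11, SE 0.32, edgeR adjusted p 0.0352). ALDH_High library 1 came closest to the ALDH_Low group, and the call held in 2 of the 6 leave-one-out fits. UBE2L6, the conjugating enzyme for ISG15, had 34.7, 22.0 and 20.1 CPM against 46.9, 45.8 and 45.8 (log2 fold change -0.85, SE 0.19, edgeR adjusted p 0.00988). HERC5, the ligase for ISG15, had 0.394, 0.521 and 0.645 CPM against 1.79, 1.67 and 1.33 (log2 fold change -1.60, SE 0.33, edgeR adjusted p 0.00714). HERC6, a related ligase next to HERC5 on chromosome 4, had 5.56, 3.94 and 4.43 CPM against 9.62, 7.09 and 10.3 (log2 fold change -0.96, SE 0.22, edgeR adjusted p 0.0116). USP18, the protease that removes ISG15 and dampens the receptor, had 8.69 ± 1.38 and 11.3 ± 0.737 CPM (SD, n = 3) and did not pass (log2 fold change -0.38, edgeR adjusted p 0.159). Of the 50-base words of USP18, 52.9% also occur in transcripts of other genes, among them its near copy USP41, so this value is uncertain.

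Among the 9 regulators of transcription and signalling, 4 were lower, where 9.83% of all genes were, and 5 did not pass. IRF1 (chromosome 5, 132440440 to 132508719), a transcription factor induced by interferon-gamma that binds ISRE-like elements, had 13.3, 12.7 and 9.91 CPM in ALDH_High against 28.4, 28.4 and 30.3. Its log2 fold change was -1.28 (SE 0.15, edgeR adjusted p 0.000222), the smallest adjusted p of the 45 genes, and the ALDH_Low values of IRF1 lay close together. Antisense genes, among them IRF1-AS1, overlap 26.8% of the exon length of IRF1, and other antisense genes overlap 38.3% of XAF1, 19.4% of SP110 and 16.3% of IFITM3. The sources used here do not say whether counting used strand, and without strand the reads of such pairs cannot be told apart. IRF7, the factor that amplifies interferon-alpha production, had 4.61, 3.59 and 3.49 CPM against 7.65, 5.96 and 6.43 (log2 fold change -0.78, SE 0.21, edgeR adjusted p 0.0257), and passed in 2 of the 6 leave-one-out fits. STAT2 and IRF9, of the ISGF3 complex, did not pass. STAT2 had 28.1, 21.5 and 20.6 CPM against 23.8, 20.8 and 22.1 (log2 fold change 0.07, edgeR adjusted p 0.796), and IRF9 had 5.76, 4.28 and 5.98 CPM against 4.05, 3.08 and 6.003 (log2 fold change 0.29, edgeR adjusted p 0.522). IRF9 shares 47.4% of its 50-base words with other genes, chiefly an overlapping gene on the same strand.

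PARP9, DTX3L and PARP14, ADP-ribosylation genes of 1 region of chromosome 3, had lower values in ALDH_High without overlap between the groups, as did 19.1% of all genes tested. PARP14 and DTX3L passed the threshold, and PARP9 did not. PARP14 had 20.6, 24.5 and 20.8 CPM against 38.6, 31.7 and 32.9 (log2 fold change -0.65, SE 0.13, edgeR adjusted p 0.00714). DTX3L had 25.2, 23.1 and 23.5 CPM against 40.7, 35.5 and 26.4 (log2 fold change -0.52, SE 0.16, edgeR adjusted p 0.0461). ALDH_Low library 3 of DTX3L came close to ALDH_High, and the call held in only 1 of the 6 leave-one-out fits. PARP9 (log2 fold change -0.39, edgeR adjusted p 0.1102) and SP110, a nuclear body protein (-0.42, edgeR adjusted p 0.0547), did not pass. SOCS1, the feedback inhibitor of the kinases JAK1, JAK2 and TYK2, had at most 20 counts in any library and did not pass (log2 fold change -0.52, edgeR adjusted p 0.493).

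IFI44 and IFI44L, neighbours on chromosome 1 that are common markers of an interferon response, were both lower. IFI44 (78649796 to 78664078) had 6.43, 8.57 and 7.65 CPM in ALDH_High against 25.2, 16.8 and 28.2, without overlap (log2 fold change -1.63, SE 0.21, edgeR adjusted p 0.000438). IFI44L had 4, 6 and 4 counts in ALDH_High libraries 1, 2 and 3 and 73, 18 and 14 counts in ALDH_Low libraries 1, 2 and 3, so ALDH_Low library 1 carried most of its signal. The log2 fold change of IFI44L was -2.74 (SE 0.61, edgeR adjusted p 0.0103) and -1.85 without ALDH_Low library 1. IFI6 and IFI35, common interferon-induced genes, did not pass, at -0.32 (edgeR adjusted p 0.266) and -0.29 (edgeR adjusted p 0.322), nor did the pro-apoptotic XAF1 at -0.50 (edgeR adjusted p 0.578). IFI27 reached at most 10 counts and IDO1, the tryptophan-degrading enzyme induced by interferon-gamma, at most 2.

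**Figure D4:**
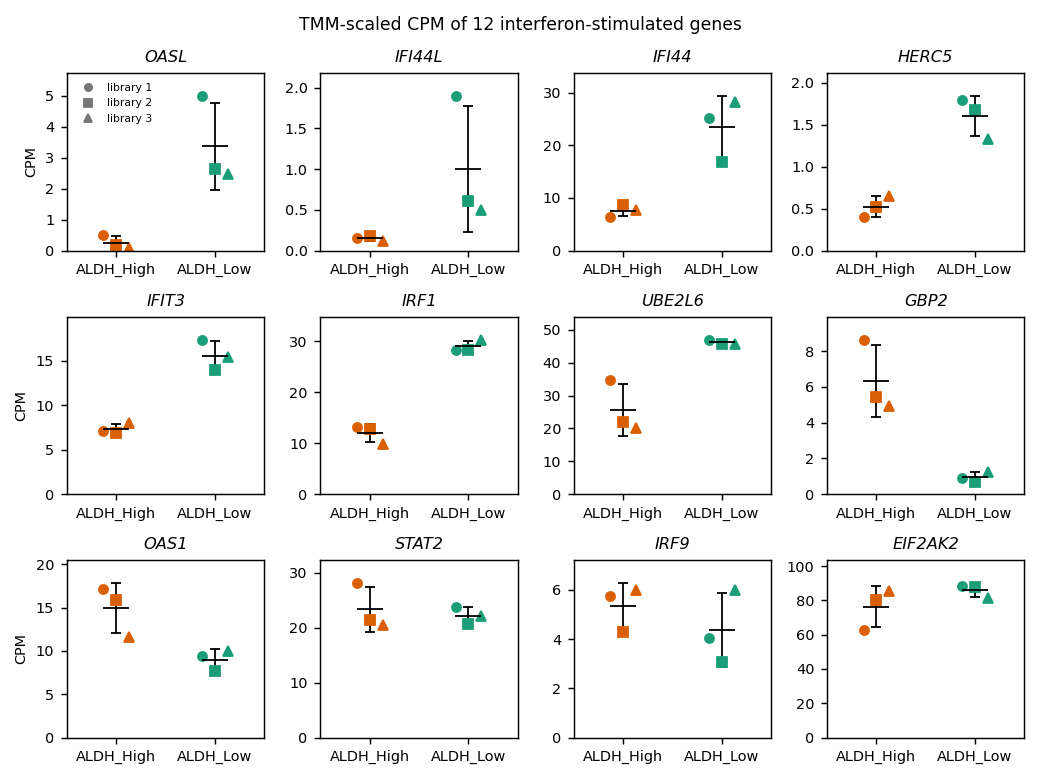
TMM-scaled CPM (y axis, from 0) of 12 interferon-stimulated genes in the 3 ALDH_High and 3 ALDH_Low libraries (x axis), with black marks for the mean and bars for ± SD; circles, squares and triangles are libraries 1, 2 and 3. OASL, IFI44L, IFI44, HERC5, IFIT3, IRF1 and UBE2L6 are lower in every ALDH_High library, GBP2 and OAS1 are higher in every ALDH_High library, and STAT2, IRF9 and EIF2AK2 overlap.

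Seen by library, the median of the 45 genes, taken as log2 CPM minus each gene's mean over the 6 libraries, was -0.18, -0.29 and -0.39 in ALDH_High libraries 1, 2 and 3 and 0.47, 0.25 and 0.20 in ALDH_Low libraries 1, 2 and 3. The groups did not overlap, and the same median over all genes tested stayed between 0.003 and 0.018. ALDH_Low library 1 was the highest of the 6 libraries for 24 of the 45 genes, a count that was not made over all genes tested. It also had the largest share of counts from the 13 mitochondrial protein-coding genes, at 2.92%, against 1.91% and 2.12% in ALDH_Low libraries 2 and 3 and 1.51%, 1.58% and 1.27% in ALDH_High libraries 1, 2 and 3. The part of this share in the result was not tested. Without ALDH_Low library 1, 14 genes were lower and 2 were higher, and 2738 passed over all genes, against 3513 in the main fit.

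**Figure D5:**
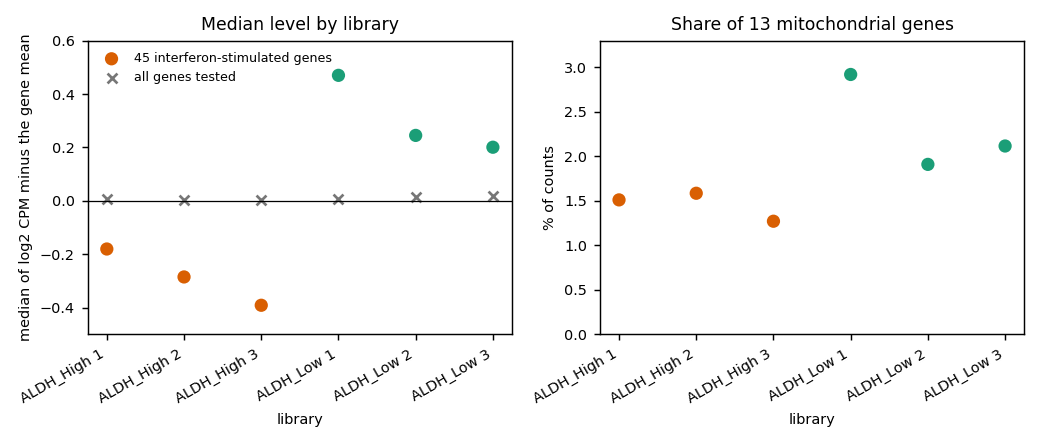
Left, the median over the 45 genes of log2 CPM minus the gene's mean over the 6 libraries (filled points), with the same median over all genes tested (crosses). Right, the percentage of each library's counts that fell on 13 mitochondrial protein-coding genes. On the left the 3 ALDH_High libraries lie between -0.39 and -0.18 and the 3 ALDH_Low libraries between 0.20 and 0.47; on the right ALDH_Low library 1 is the highest at 2.92%.

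The rest of the pathway was read from lists of ligands, receptors, sensors and inhibitors. Of 21 interferon ligand genes none was high enough to be tested: 16 had 0 counts in every library, and 20 had 3 counts or fewer. The exception was IFNE, an epithelial type I interferon, with 1, 3 and 3 counts in ALDH_High and 5, 12 and 10 in ALDH_Low. Of 10 receptor and signalling genes, 1 was higher, 1 was lower and 8 did not pass, a share near the 20.6% of all genes, with a median log2 fold change of -0.01. IFNGR2, a chain of the interferon-gamma receptor, was higher, at 79.7, 62.1 and 54.1 CPM in ALDH_High against 40.1, 36.4 and 36.9 (log2 fold change 0.79, SE 0.15, edgeR adjusted p 0.00426). IFNLR1, the specific chain of the interferon-lambda receptor, was lower, at 2.17, 1.82 and 1.29 CPM against 4.80, 5.25 and 4.64 (log2 fold change -1.48, SE 0.26, edgeR adjusted p 0.00260).

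The type I receptor chains IFNAR1 (log2 fold change 0.27, edgeR adjusted p 0.220) and IFNAR2 (0.62, edgeR adjusted p 0.0677) and the other interferon-gamma receptor chain, IFNGR1 (0.19, edgeR adjusted p 0.414), did not pass. IFNAR2 passed in 5 of the 16 alternatives, among them the fits without ALDH_High library 2 and without ALDH_Low library 1. The kinases JAK1, JAK2 and TYK2 had log2 fold changes of -0.12, -0.12 and 0.09 (edgeR adjusted p 0.554, 0.687 and 0.727). A p that misses the threshold does not show that these levels were equal.

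Of 14 genes of nucleic acid sensing, 12 were tested, and 1 was lower and 1 higher, a share near that of all genes (20.6%). TMEM173, which codes for STING, the adaptor of cytosolic DNA sensing, was lower at 42.5, 32.1 and 28.9 CPM against 51.1, 54.2 and 48.6 (log2 fold change -0.57, SE 0.15, edgeR adjusted p 0.0227). It passed in only 1 of the 6 leave-one-out fits. AIM2, a DNA sensor of the inflammasome, was higher at 5.92, 4.60 and 4.40 CPM against 0.389, 0.301 and 1.19 (log2 fold change 3.01, SE 0.45, edgeR adjusted p 0.00108), and its log2 fold change was 3.82 without ALDH_Low library 3. Of 11 inhibitors of the pathway, 2 passed, a share near that of all genes (20.6%). Both were lower, where 9.83% of all genes were: TREX1, the exonuclease that removes cytosolic DNA (log2 fold change -1.17, SE 0.20, edgeR adjusted p 0.00257), and CISH, of the family of SOCS1 (-1.05, SE 0.28, edgeR adjusted p 0.0248). CISH passed in 3 of the 6 leave-one-out fits. The whole exon length of TREX1 is overlapped by ATRIP on the same strand, so its counts are uncertain.

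A list of 37 other known interferon targets held 28 that were tested, of which 10 were lower, where 9.83% of all genes were, and the other 18 did not pass, with a median log2 fold change of -0.37. BATF2, a leucine zipper factor induced by interferon, had 2.84, 2.81 and 2.70 CPM in ALDH_High against 9.65, 10.4 and 8.63 (log2 fold change -1.78, SE 0.19, edgeR adjusted p 0.000134). PARP12, an antiviral ADP-ribosyltransferase, had 18.4, 18.0 and 14.6 CPM against 36.5, 38.2 and 36.6 (log2 fold change -1.13, SE 0.13, edgeR adjusted p 0.000246). The other 8 lower genes were SLFN11 (log2 fold change -1.03), NMI (-1.02), SP100 (-0.78), APOL2 (-0.73), PARP10 (-0.71), TRIM56 (-0.67), PLSCR1 (-0.58) and APOL6 (-0.51). Of these, PARP10 passed in 3 and APOL6 in only 1 of the 6 leave-one-out fits.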

How the data were processed

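RNA was sequenced from 6 libraries (TruSeq Stranded mRNA, per the labels' protocols), 3 of ALDH_High and 3 of ALDH_Low. The authors deposited whole-number counts per gene, which were treated here as estimated counts rounded to whole numbers. In each library 133 to 177 genes had a count of 0 beside a TPM above 0, but the program that made the counts is not stated. They also deposited TPM values, which sum to 1000000 per library. Per the submitters' processing notes, FastQC 0.11.3, STAR 2.5.1b, HTSeq 0.6.1, DESeq2 and GRCh38 were used; their roles, the annotation and whether counting used strand are not given in the sources used here. The design assumed counts and provided for rounding.

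After filterByExpr and TMM scaling, the groups were compared in edgeR 4.0.16 (glmQLFit, glmQLFTest, two-sided, no replicate term), with Benjamini-Hochberg adjustment over all 17047 genes; SE is the log2 fold change over the square root of F. A simulation gave every gene the same dispersion and changed only genes above a minimum mean count. Of 100 genes changed by a log2 fold of 1 it recovered 92, and 5.88% of its calls were false. It does not give the power for sparser or more variable genes or for smaller changes. Positions, exon overlaps and 50-base words come from GENCODE 44. The annotation behind the deposited counts may differ, so the overlaps and shared words may not all apply to them. The text names all 48 genes, and other pathway genes that passed or are core receptors and kinases. Some genes of these lists are not reported here. Library values are printed for interferon-stimulated genes past the threshold with a mean of at least 1 CPM; those of other genes, and the OAS and GBP ratios, were chosen after their values were seen. Promoters are those of the 6 genes past the threshold with the smallest p, where RefSeq's table held them. Members and lists were chosen with earlier results of these data known. Alternatives were other scaling, filters, a replicate block, left-out libraries, DESeq2 1.42.0 and limma 3.58.1 on log2(TPM + 1) or log2(TPM + 0.1).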

Additional observations from a re-analysis of the deposited data

How the results depend on the processing

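Of the 23 genes past the threshold, 20 were tested in all 16 alternatives, OASL in 15, HERC5 in 14 and IFI44L in 13, and each kept its direction in those; 6 of them (IRF1, GBP2, IFI44, OASL, IFIT3 and UBE2L6) passed in every one that tested them, 17 lost their call in at least 1, and 7 of the other 22 gained one. With libraries left out 1 at a time, the count of lower genes ranged from 13 (without ALDH_High library 2) to 24 (without ALDH_High library 1) and that of higher genes from 1 to 3. Over all genes, 2507 passed without ALDH_High library 2 and 4221 without ALDH_High library 1, against 3513 in the main fit. With limma the count of lower genes was 11 on log2(TPM + 1) and 12 on log2(TPM + 0.1), both for a mean TPM of at least 1, and 5 on log2(TPM + 1) for all genes with a TPM above 0; the median log2 fold change was -0.39, -0.44 and -0.34 in that order, and over all genes the last setting called 2006. The filter on mean TPM left HERC5 and IFI44L untested; for the other losses the cause was not tested. At an adjusted p below 0.01, 11 genes were lower, 1 was higher and the number of genes past the threshold over all genes was 1930. Where a change of at least 1 on the log2 scale was also asked for, these were 12, 1 and 1958. Upper-quartile scaling, which shifted the median of all genes to -0.06, gave 23 lower genes, and 54.01% of its calls over all genes were lower, against 47.7% with TMM. With at least 10 counts in every library, OASL and IFI44L were not tested.

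In the pathway lists, the ligand count ranged from 0 to 1 with 1 library left out: IFNE passed without ALDH_Low library 1 (log2 fold change -2.29, edgeR adjusted p 0.0402), and again, as 1 of the ligands, without both libraries numbered 1, a setting chosen after seeing the data (edgeR adjusted p 0.0433). The receptor and signalling count fell from 2 to 1 under limma on log2(TPM + 0.1), under limma on all genes with a TPM above 0 and with the fold threshold, and rose to 3 with no filter, with the replicate block, without ALDH_High library 2, without ALDH_Low library 1 and in DESeq2, in each case through IFNAR2 (log2 fold change of IFNAR2 0.62, adjusted p 0.0321, with the block). The nucleic acid sensing count was 1 with at least 10 counts in every library, under limma on all genes, at an adjusted p below 0.01 and with the fold threshold, 1 to 2 with 1 library left out, and 3 with no filter and in DESeq2. The count of inhibitors was 1 in each limma setting and at an adjusted p below 0.01, and 1 to 4 with 1 library left out. The other targets fell from 10 to 6 under limma on all genes and to 4 with the fold threshold, and rose to 13 under upper-quartile scaling, with the replicate block and without ALDH_High library 1, and to 12 with no filter.

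Signs turned only among genes that did not pass. With 1 library left out, the log2 fold change ranged from -0.22 to 0.30 for ISG20, from -2.01 to 1.88 for IFITM1 and from -0.062 to 0.17 for STAT2, and the log2 fold change of IFITM3 ranged from -0.0165 to 0.18. Without both libraries numbered 1 it was -0.11 for ISG20, -0.037 for IFITM3, 0.052 for CMPK2, -0.011 for STAT2 and 0.069 for XAF1, and IFITM1 was at 0.033 under limma on log2(TPM + 0.1).

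The replicate numbers do not establish pairs. Deviations from the group mean of same-numbered libraries correlated at 0.15, 0.08 and 0.11 across genes, and those of libraries with other numbers between -0.10 and 0.02. The deviations within a group cancel out for each gene, so these correlations depend on each other. They cannot decide whether the numbers mark pairs. With the replicate number as a block, 21 genes were lower and 2 higher, all shared with the fit without it, and 3748 genes passed over all genes. At this depth RSAD2, IFI27, IDO1 and the ligands stayed too low for the main test.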
